A study of Bubalus bubalis with 36 samples.

Results

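The subunits of integrins and laminins were described in 6 adipose tissue (AT) depots of river buffaloes. Members were the genes whose symbol in the deposited table names an integrin α chain (ITGA), an integrin β chain (ITGB) or a laminin α, β or γ chain (LAMA, LAMB, LAMC). This gave 37 symbols from 42 of the 23032 gene models in the table, comprising 17 ITGA, 8 ITGB and 12 laminin symbols. For the 4 symbols that named several models, the model with the highest mean was used. ITGA9 was not analysed here.

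Each of 6 animals contributed all 6 depots, so the 36 libraries were 6 depots with 6 animals each. The SATs, or subcutaneous depots, came from the back (BSAT), the sternum (SSAT) and the groin (inguinal, IAT). The VATs, or visceral depots, came from the omentum (OAT), the pericardium (PCAT) and the fat around the kidney (PRAT). Animals 1 to 3 were males and animals 4 to 6 were females, aged 19 to 21 months, and no treatment or allele was named for any of them. The labels gave Murrah as the breed of the males and Nili-Ravi as that of the females, whereas the study's animal table gave Murrah for all, so sex and breed cannot be told apart here. A library is named below by its depot and animal (OAT 1 is the omental depot of animal 1).

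Expression was given as FPKM, a fragment count scaled to transcript length and library size, which can therefore be compared between genes. The FPKM of all gene models summed to between 796645 and 911384 per library. FPKM carries no read depth, so no counting interval is given and a value of 0 is only a listed 0. Bulk AT holds adipocytes, vessels, fibroblasts, nerves and immune cells, and fewer cells of a type cannot be told apart from less RNA per cell.

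The libraries differed in the marker genes of these cells. The summed FPKM of 10 adipocyte markers ranged from 349 in PRAT 4 to 12758 in PRAT 1, and it was below 600 in OAT 1, OAT 4, PCAT 4 and PRAT 4. B cell markers were highest in OAT 1, PRAT 2, PRAT 4, OAT 4, IAT 4 and PCAT 2, with sums of 267 to 2187 against 7.61 to 120 in the other 30 libraries, and the same 6 libraries had the highest T cell marker sums. Smooth muscle markers reached 3801 in PRAT 4, skeletal muscle markers 1995 in BSAT 1 and mesothelial markers 2428 in PCAT 4. All 9 fibroblast markers present in the table were higher in SATs than in VATs.

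An integrin is a pair of an α and a β chain that spans the cell membrane, binds matrix proteins or receptors on other cells and links them to the actin cytoskeleton. A laminin is a trimer of an α, a β and a γ chain, and laminins are the main adhesive proteins of the basement membrane, the thin matrix sheet that surrounds each adipocyte and lines each capillary. The α chain largely sets which integrins a laminin binds, and integrins with ITGA3, ITGA6 or ITGA7 are the main laminin-binding ones. Integrins with ITGB2 or ITGB7 are restricted to leukocytes, so in a bulk tissue the family reports both matrix contact and immune cells.

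The levels of the members covered a wide range. ITGB1, the β chain shared by most matrix-binding integrins, averaged 1682 ± 343 FPKM over the 36 libraries (SD). LAMB1, the common laminin β chain, averaged 1242 ± 525 FPKM, and ITGA6, a laminin-binding α chain, averaged 840 ± 343 FPKM. LAMA4 and LAMA5, the laminin α chains typical of capillary walls and of adipocyte basement membranes, averaged 259 ± 95.6 and 252 ± 93.2 FPKM, LAMC1 averaged 195 ± 62.7 FPKM and LAMB2 averaged 181 ± 60.7 FPKM. Of the 37 members, 30 had a mean of at least 1 FPKM, and 5 more were above 0.1 FPKM. ITGB6, the epithelial partner of ITGAV, and LAMB4 had means of 0.00602 and 0.0182 FPKM and were not tested.

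The depots used nearly the same laminin chains. LAMA4 made up 42.6% ± 7.9 (BSAT) to 47.7% ± 7.7 (IAT) of the summed FPKM of the 5 α chains, and LAMA5 40.4% ± 8.1 (IAT) to 47.6% ± 9.8 (PCAT) (SD, n = 6 libraries per depot). The minor α chains differed. LAMA2 took 8.4% ± 1.7 of the α chain signal in SATs and 4.0% ± 2.1 in VATs, and LAMA1 took 0.1% ± 0.2 in SATs and 1.6% ± 1.5 in VATs (n = 18 libraries each). Among β chains, LAMB2 took 17.5% ± 5.3 in SATs and 11.1% ± 4.6 in VATs, the rest being almost entirely LAMB1. LAMC1 took 99.1% ± 0.8 of the γ chain signal in SATs and 97.9% ± 3.5 in VATs.

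**Figure D1:**
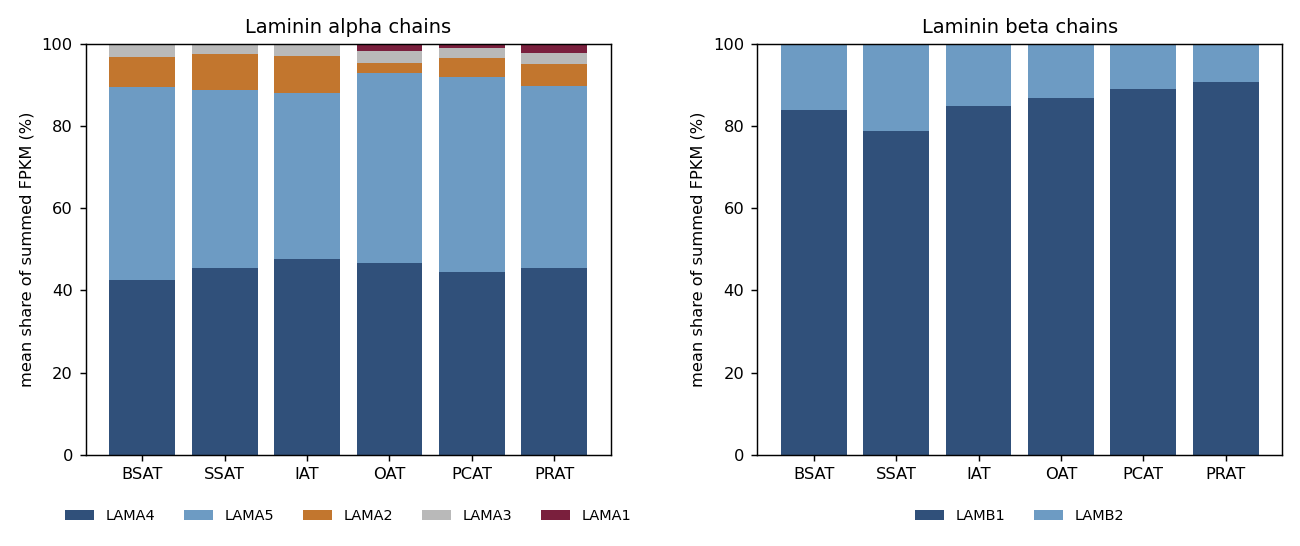
Mean share of each chain in the summed FPKM of the laminin α chains (left) and β chains (right), in percent, in the 6 depots with SATs left of VATs; each bar is the mean of 6 libraries. LAMA4 and LAMA5 fill most of every α chain bar, the LAMA1 share shows only in OAT, PCAT and PRAT, and LAMB2 has its largest share in SSAT at 21.2%.

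To find members whose level differed among depots, the 6 depots were compared by the F-test of limma on log2(FPKM + 0.1), with Benjamini-Hochberg adjustment over all 17688 gene models that had a mean above 0.1 FPKM. Of the 35 members tested, 8 differed (22.9%), against 21.3% of all gene models tested, so the members as a class were close to the background. These were LAMA1 (adjusted p = 2.16e-05), ITGB8 (9.5e-05), ITGA11 (0.000517), LAMA2 (0.000762), ITGB5 (0.00353), LAMB2 (0.00714), LAMC3 (0.0484) and ITGA8 (0.049). When animal was entered as a block, 14 members differed (30.1% of all gene models), the 8 above and ITGA2, ITGA4, ITGAD, ITGAL, ITGB2 and LAMC1. Without the 6 libraries rich in B cell markers 14 differed as well (26.4% of all gene models), with LAMC3 lost and ITGA6, ITGAD, ITGAV, ITGB3, ITGB4, LAMB1 and LAMC1 added. LAMC3 and ITGA8 lay next to the threshold, and neither passed it without animal 1.

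**Figure D2:**
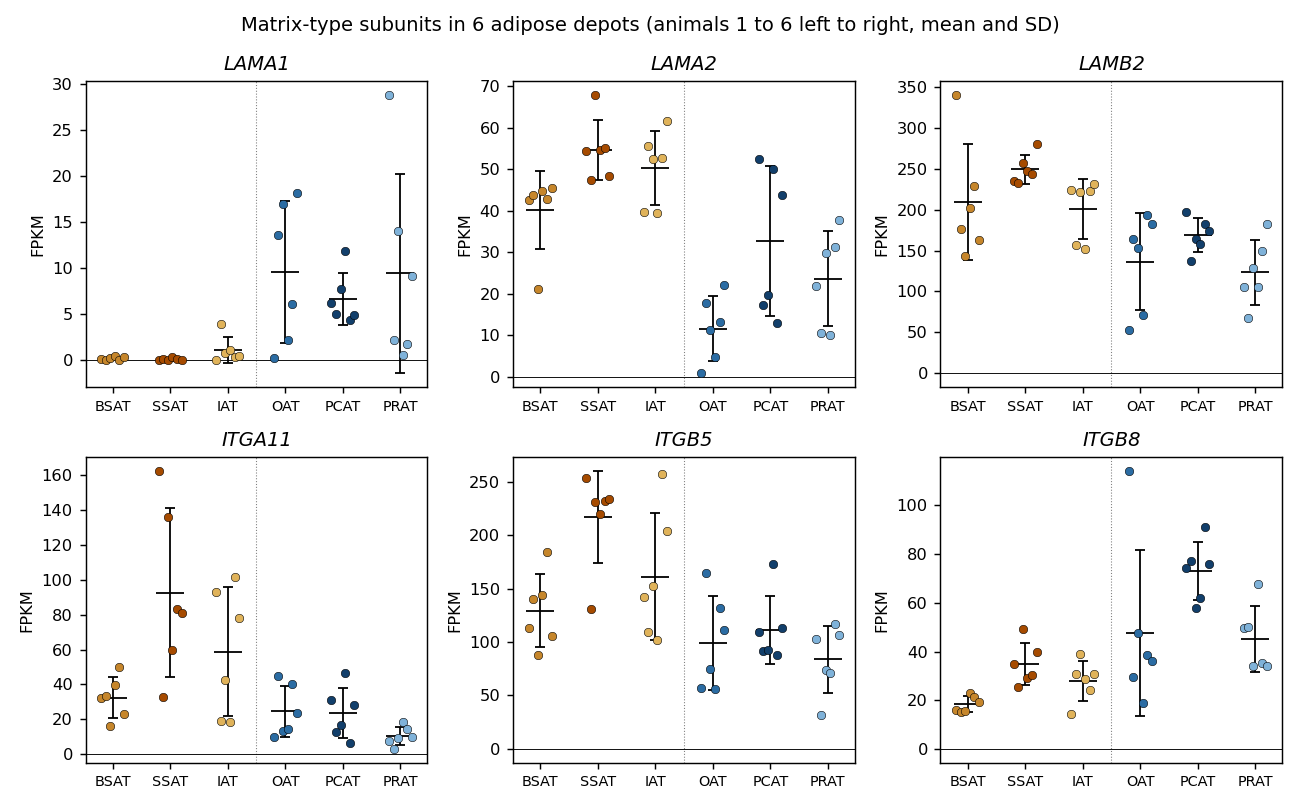
FPKM (linear axis) of 6 members in each library, with SAT depots left of the dotted line and VAT depots right of it; points are animals 1 to 6 from left to right, the long bar is the mean and the whiskers are the SD of 6 animals. LAMA1 is near 0 in BSAT and SSAT and reaches 28.8 FPKM in PRAT, while LAMA2, LAMB2, ITGA11 and ITGB5 have their highest mean in SSAT and ITGB8 has it in PCAT.

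SATs were then compared with VATs, 18 libraries each, with positive log2 differences meaning higher in SATs. The fit had no term for animal, so libraries of the same animal were treated as independent. Of the 35 members, 15 passed an adjusted p of 0.05 (limma). When animal means were compared with animal as a block, 13 of these 15 calls were kept. ITGA11, LAMA2, ITGB5, LAMB2, ITGB4 and ITGA5 were higher in SATs, which is 17.1% of the members against 7.9% of all gene models. LAMA1, ITGAD, ITGAL, ITGA8, ITGA4, ITGB2, ITGB8, LAMB3 and ITGAE were lower, which is 25.7% against 22.1%. The median log2 difference of the members was -0.05, and that of all gene models was -0.13. The higher members bind or build matrix. The lower ones comprised the leukocyte chains ITGAD, ITGAL, ITGA4, ITGB2 and ITGAE, the laminin chains LAMA1 and LAMB3, and ITGA8 and ITGB8, which are not leukocyte chains. Without animal 1 the count was 8, with 4 higher and 4 lower, and the shares of all gene models were 6.18% higher and 13.7% lower. With animal as a block ITGA2 (adjusted p = 0.012) and LAMC1 (adjusted p = 0.0368) passed as higher too. Quantile normalization moved the median of all gene models to -0.02 and turned the calls over all gene models from 1397 higher and 3909 lower to 1991 higher and 1628 lower, while the members had 8 higher and 8 lower.

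**Figure D3:**
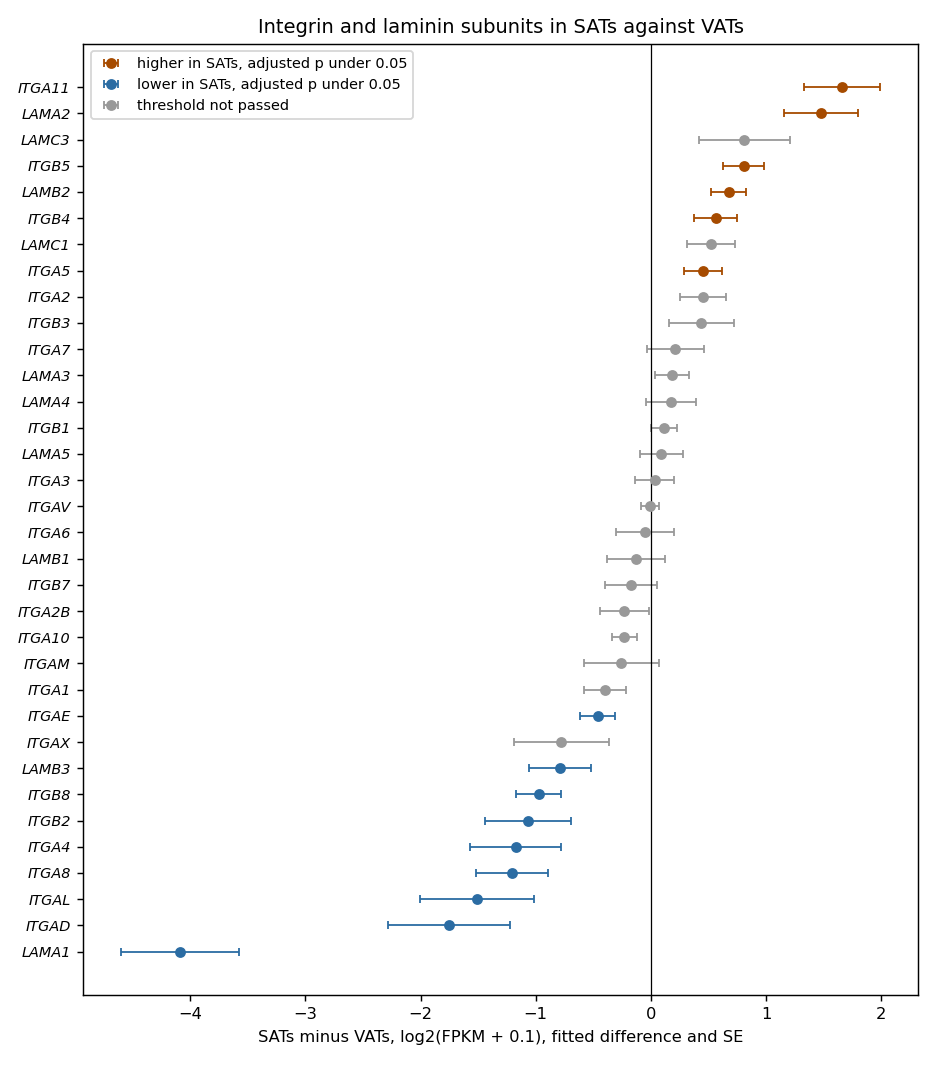
Fitted difference between SATs and VATs in log2(FPKM + 0.1) for the members reported here, ordered by size; points are estimates, whiskers are the SE, and values right of 0 are higher in SATs. ITGA11 and LAMA2 stand at the upper end with 1.66 and 1.48, LAMA1 stands alone at the lower end with -4.09, and the abundant ITGB1, ITGA6, LAMA4, LAMA5 and LAMB1 lie close to 0.

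LAMA1, a laminin α chain best known from early embryonic and some epithelial basement membranes, showed the largest difference of all members. Its lowest, median and highest values were 0, 0.259 and 3.92 FPKM in the 18 SAT libraries, against 0.315, 6.12 and 28.8 FPKM in the 18 VAT libraries. All SAT libraries stayed below 4 FPKM and 13 of the 18 VAT libraries lay above the highest of them, IAT 2, so the groups overlapped only at the low VAT end. The fitted difference was -4.09 ± 0.51 on the log2(FPKM + 0.1) scale (SE, adjusted p = 9.61e-07, lower in SATs in 6 of 6 animals), a scale that understates the change of a gene this low. Over the 19 alternative settings it had a range of -5.35 to -2.37, and each of them kept the call.

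PCAT libraries ran from 4.39 to 11.8 FPKM with a median of 5.62, OAT libraries from 0.315 to 18.2 with a median of 9.85 and PRAT libraries from 0.553 to 28.8 with a median of 5.69. LAMA1 was least spread in PCAT, and the lowest values of OAT and PRAT were OAT 1 and PRAT 4, libraries with low adipocyte and high B cell marker sums. Mesothelial markers moved with the same contrast, since 5 of 9 were lower in SATs (MSLN, KRT8, KRT18, WT1 and BNC1). The mesothelial sum was 1.11 to 6.41 FPKM in SATs and 1.31 to 2428 FPKM in VATs. MSLN, a defining mesothelial gene, was listed at 0 in PRAT 1 and PRAT 3, where LAMA1 was 28.8 and 14.1 FPKM, and it was 9.64 FPKM in OAT 1, where LAMA1 was 0.315 FPKM. WT1 was 0 to 0.123 FPKM in SATs, against 0.106 to 0.443 FPKM in PRAT. In PRAT 1 the mesothelial sum was 12.8 FPKM and WT1 was 0.443 FPKM, both above every SAT library. The part of mesothelium in the difference was not tested.

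LAMA2, the laminin α chain of muscle fibre and peripheral nerve basement membranes, had the opposite pattern. It ranged from 21.1 to 67.9 FPKM with a median of 47.9 in SATs, against 0.901 to 52.4 FPKM with a median of 18.7 in VATs. BSAT 3 was the only SAT library below 39 FPKM, and PCAT split into libraries of 43.8 to 52.4 FPKM (animals 1, 4 and 6) and of 13.0 to 19.7 FPKM (animals 2, 3 and 5). The difference was 1.48 ± 0.32 (adjusted p = 0.000919, higher in 6 of 6 animals). Without the 6 libraries rich in B cell markers it was 0.94 and still passed.

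LAMB2, a β chain that can replace LAMB1 in a laminin, ranged from 144 to 340 FPKM with a median of 226 in SATs, against 53.3 to 197 FPKM with a median of 156 in VATs. In 13 of the 18 SAT libraries it lay above every VAT library. The difference was 0.68 ± 0.15 (adjusted p = 0.00111, higher in 6 of 6 animals), with 0.43 without the B cell-rich libraries. LAMB1 itself did not pass (-0.13 ± 0.25, adjusted p = 0.72), nor did LAMC1, the γ chain of most laminins, which came near the threshold (0.52 ± 0.21, adjusted p = 0.0536 and 0.0368 with the block).

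ITGA11, the α chain of a collagen-binding integrin found mainly on fibroblasts and mesenchymal progenitors, ranged from 16.3 to 163 FPKM with a median of 46.0 in SATs, against 2.91 to 46.7 FPKM with a median of 14.5 in VATs. In 9 of 18 SAT libraries it exceeded every VAT library. The difference was 1.66 ± 0.33 (adjusted p = 0.00041, higher in 6 of 6 animals). The other collagen-binding α chains did not pass, with 0.45 ± 0.20 for ITGA2, -0.40 ± 0.18 for ITGA1 and -0.23 ± 0.11 for the scarce ITGA10. The fibroblast marker sum was 6212 to 100232 FPKM in SATs and 1202 to 43431 FPKM in VATs. Within SATs its median was lowest in SSAT (30346 FPKM, against 47295 in BSAT and 45960 in IAT), where the ITGA11 mean was highest. Taken gene by gene, however, the fibroblast markers were highest in SSAT too. Against the mean of the other depots, their median difference was 1.44 in SSAT, 0.83 in IAT and 0.50 in BSAT. In SSAT 7 of the 9 markers passed as higher. The sum and the single markers thus ordered the SAT depots differently. The part of fibroblasts in the ITGA11 difference was not tested.

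ITGB5, a partner of ITGAV in binding vitronectin, ranged from 87.7 to 257 FPKM with a median of 149 in SATs, against 32.1 to 173 FPKM with a median of 97.5 in VATs. The difference was 0.81 ± 0.18 (adjusted p = 0.00105, higher in 6 of 6 animals). ITGB8, another partner of ITGAV, which binds latent TGF-β, went the other way. It ranged from 14.2 to 49.3 FPKM with a median of 27.1 in SATs, against 18.7 to 114 FPKM with a median of 49.8 in VATs, and 10 of 18 VAT libraries lay above every SAT library. The ITGB8 difference was -0.97 ± 0.19 (adjusted p = 0.000367, lower in 6 of 6 animals). ITGAV, the α chain that both β chains share, did not pass, with 138 ± 22.6 FPKM in SATs and 138 ± 17.9 FPKM in VATs and a difference of -0.00 ± 0.08 (adjusted p = 0.979).

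ITGA8, an α chain of smooth muscle and other contractile cells, was scarce. It ranged from 0.133 to 1.06 FPKM with a median of 0.378 in SATs, against 0.277 to 9.65 FPKM with a median of 0.900 in VATs. The highest value was in PRAT 4, the library with the highest smooth muscle marker sum. The difference was -1.20 ± 0.31 (adjusted p = 0.00407, lower in 6 of 6 animals), and it kept its call without PRAT 4.

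The remaining matrix chains higher in SATs were smaller and less stable. ITGB4, which pairs with ITGA6 to anchor hemidesmosomes, had a difference of 0.56 ± 0.19 (adjusted p = 0.023, higher in 5 of 6 animals) and lost its call without animal 1 (0.45) or animal 6 (0.40). The libraries overlapped almost fully, at 4.02 to 15.9 FPKM in SATs and 3.70 to 16.03 FPKM in VATs. ITGA5, the fibronectin receptor α chain, had a difference of 0.46 ± 0.16 (adjusted p = 0.0339, higher in 6 of 6 animals) and lost its call without the B cell-rich libraries (0.35) and without animal 1 (0.35), 3 (0.51), 5 (0.49) or 6 (0.41).

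ITGAL, ITGA4 and ITGAE each had their highest values in the B cell-rich libraries. ITGAL, the α chain of the lymphocyte receptor for ICAM1, ranged from 4.72 to 145 FPKM with a median of 17.7 in SATs, against 9.25 to 528 FPKM with a median of 34.8 in VATs. Its difference was -1.51 ± 0.49 (adjusted p = 0.0201, lower in 6 of 6 animals). In the 6 B cell-rich libraries ITGAL was 99.2 to 528 FPKM, against 4.72 to 58.9 FPKM in the other 30, so those 6 stood above all others. Without them the difference was -0.76 and did not pass, and the call was also lost without animal 1 (-1.32), animal 2 (-1.45) or animal 3 (-1.50).

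ITGA4, the α chain of the receptor for VCAM1 and MADCAM1, showed the same separation. It was 246 to 525 FPKM in the 6 B cell-rich libraries and 22.4 to 191 FPKM in the other 30. In SATs it ranged from 22.4 to 307 FPKM with a median of 40.8, against 31.6 to 525 FPKM with a median of 88.6 in VATs. The difference of -1.18 ± 0.40 (adjusted p = 0.0233, lower in 6 of 6 animals) was -0.58 without the 6 libraries and did not pass, and it was lost without animal 1 (-0.97) or animal 3 (-1.14).

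ITGB2, the β chain of most leukocyte integrins, had a difference of -1.07 ± 0.37 (adjusted p = 0.0292, lower in 6 of 6 animals). It ranged from 4.73 to 60.0 FPKM with a median of 12.3 in SATs, against 11.8 to 174 FPKM with a median of 27.9 in VATs. The call was lost without the 6 libraries (-0.63), without animal 1 (-0.76) or animal 3 (-1.04), and after quantile normalization (-0.92). ITGAE, which pairs with ITGB7 on tissue lymphocytes, was also highest in those 6 libraries, at 0.320 to 0.719 FPKM against 0.116 to 0.282 FPKM in the other 30. Its difference of -0.46 ± 0.15 (adjusted p = 0.0213) was -0.19 without them and did not pass, and it was lost without animal 1 (-0.40) or animal 2 (-0.41).

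ITGAD, a partner of ITGB2 on macrophages, kept its call under each of the 19 alternative settings. It ranged from 0 to 7.57 FPKM with a median of 0.210 in SATs, against 0.175 to 10.9 FPKM with a median of 0.987 in VATs. The difference was -1.76 ± 0.53 (adjusted p = 0.0123, lower in 6 of 6 animals). ITGAD too was high in the 6 B cell-rich libraries, at 1.23 to 10.9 FPKM with a median of 6.41. In the other 30 it was 0 to 4.08 FPKM with a median of 0.368, and 4 of the 6 stood above all of these. Without the 6 libraries the difference was -1.32 and still passed (adjusted p = 0.0269, limma). ITGAM and ITGAX, the myeloid partners of ITGB2, did not pass, with -0.26 ± 0.33 and -0.78 ± 0.41, and ITGB7 did not pass either (-0.17 ± 0.22). The models of ITGAM, ITGAX and ITGAD lie next to each other on chromosome 24 of the authors' assembly, and whether reads were shared among these related genes was not tested.

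T cell markers moved with the leukocyte integrins. Of 9 T cell markers in the table, 7 were lower in SATs, and their sum ranged from 13.9 to 731 FPKM in SATs and from 9.99 to 2557 FPKM in VATs. Of 3 neutrophil markers tested, CSF3R (-0.52, adjusted p = 0.0451) and CXCR2 (-0.78, adjusted p = 0.0173) were lower in SATs (limma). The neutrophil marker sum was low throughout, at 0.226 to 1.97 FPKM in SATs and 0.762 to 3.18 FPKM in VATs. No B cell marker passed, and the 8 macrophage markers did not pass either. The defining T cell gene CD3D was present in every library, at 2.28 FPKM in IAT 5 up to 1117 FPKM in OAT 4. The part of lymphocyte and neutrophil number in these differences was not tested.

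**Figure D4:**
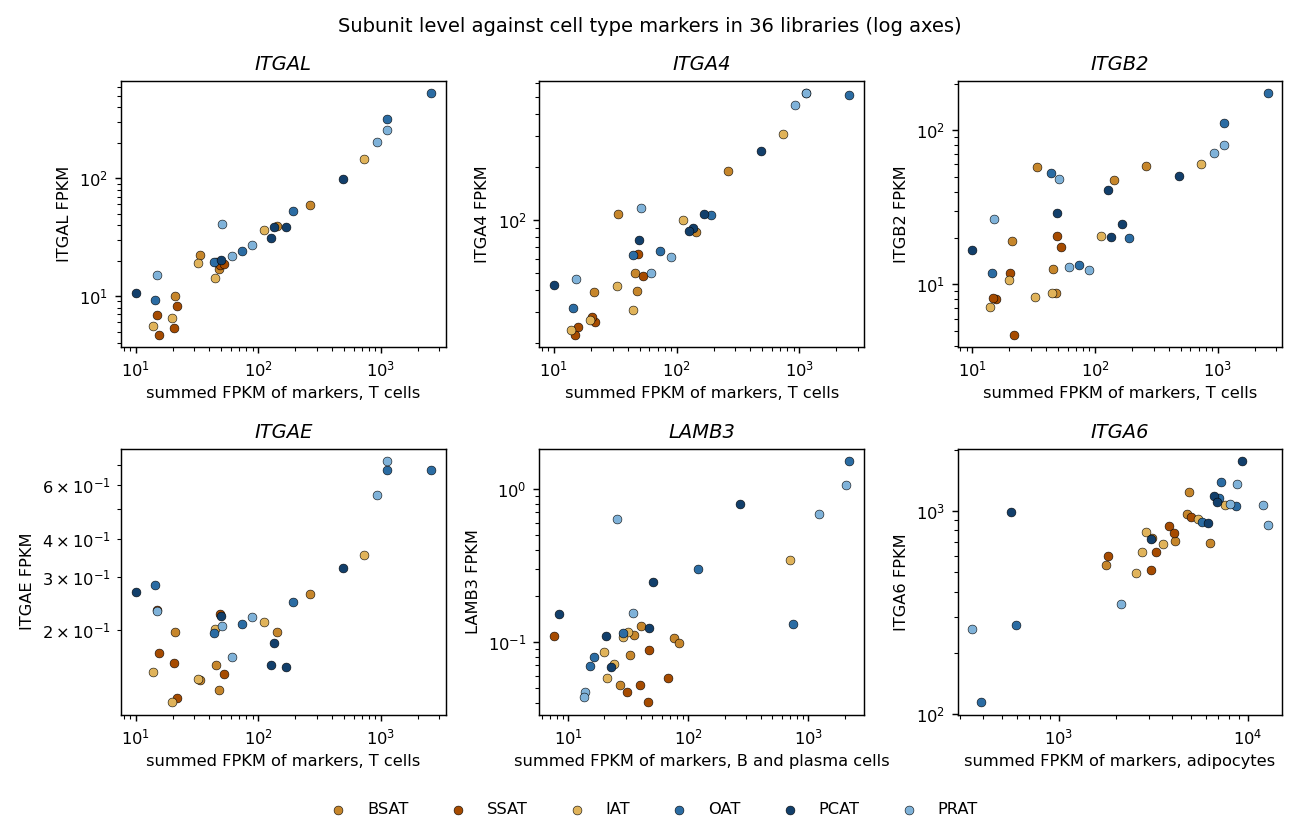
FPKM of 6 members against the summed FPKM of T cell markers (ITGAL, ITGA4, ITGB2, ITGAE), B cell markers (LAMB3) or adipocyte markers (ITGA6) in the same library, all on log axes; each point is a library coloured by depot. ITGAL, ITGA4 and ITGAE are highest in the 6 libraries with the highest T cell sums, LAMB3 is highest in OAT 1 and PRAT 2, which have the highest B cell sums, and ITGA6 is lowest in OAT 1, where the adipocyte sum is 388 FPKM. LAMB3 does not follow the B cell sum throughout, with 0.130 FPKM in OAT 4 (sum 744) and 0.635 FPKM in PRAT 1 (sum 25.4).

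LAMB3, a β chain that joins LAMA3 in the laminin of epithelial hemidesmosomes, was scarce in most libraries. It was 0.0401 to 0.343 FPKM in SATs, against 0.0435 to 1.52 FPKM in VATs, with a difference of -0.79 ± 0.27 (adjusted p = 0.0247, lower in 5 of 6 animals). The call was lost without the B cell-rich libraries (-0.38) and without animal 1 (-0.60) or animal 2 (-0.64). Mesothelial sums were 544 FPKM in OAT 1, where LAMB3 was highest, and 1691 FPKM in PCAT 2, where it was 0.789 FPKM. In PRAT 2 LAMB3 was 1.06 FPKM at a mesothelial sum of 4.29 FPKM, and in PCAT 4 it was 0.248 FPKM at 2428 FPKM. The part of either cell type was not tested. LAMA3 was present in every library, at 9.87 to 22.1 FPKM in SATs and 5.90 to 30.9 FPKM in VATs.

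Several abundant basement membrane chains had their lowest values in the libraries in which the leukocyte chains were high. ITGA6 was 113 FPKM in OAT 1, 261 in PRAT 4, 273 in OAT 4 and 348 in PRAT 2, against 509 to 1761 FPKM in the 30 libraries not rich in B cell markers. LAMB1, LAMC1 and LAMA4 were also lowest in these 4 libraries, with LAMC1 at 31.6 to 82.7 FPKM against 121 to 292 FPKM. The adipocyte marker sum was 349 to 596 FPKM in OAT 1, OAT 4 and PRAT 4, but it was 2134 FPKM in PRAT 2. The endothelial marker sum was 210 FPKM in OAT 1, 512 in PRAT 2, 548 in OAT 4 and 763 in PRAT 4. In the 30 libraries not rich in B cell markers it was 570 to 1759 FPKM. PCAT 4 had a low adipocyte sum as well (558 FPKM) but had 992 FPKM of ITGA6, and it had the highest endothelial marker sum (1759 FPKM). Over all 36 libraries ITGA6 (-0.05 ± 0.25, adjusted p = 0.902) and LAMB1 did not pass between SATs and VATs. Without the 6 B cell-rich libraries both passed as lower in SATs, ITGA6 at -0.55 ± 0.12 (adjusted p = 0.00109) and LAMB1 at -0.65 ± 0.13 (adjusted p = 0.000681). In the same setting ITGA1 (-0.63) passed as lower, and ITGB3 (0.90) and ITGA2 (0.60) passed as higher. The part of adipocyte and of endothelial content in these differences was not tested.

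Each depot was next compared with the mean of the other 5. The 6 comparisons share libraries, so their results are not independent of each other. The members called are given beside the share of all gene models called in the same direction.

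**Figure D5:**
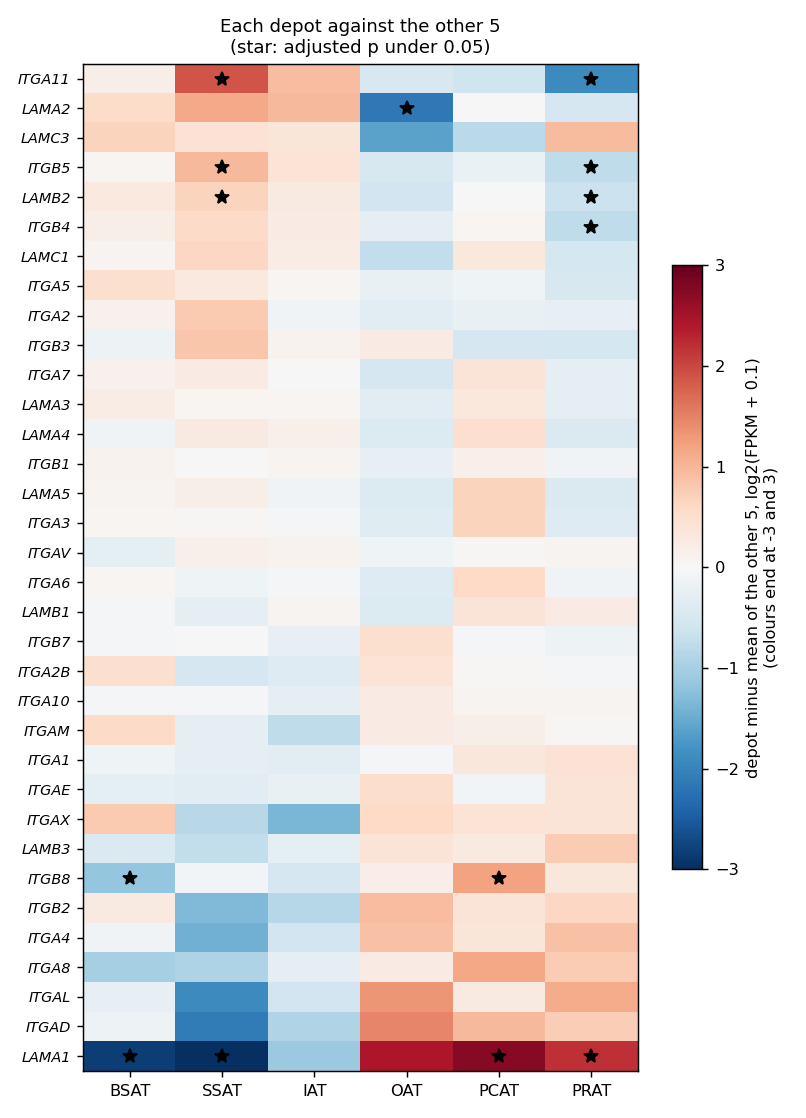
Difference between each depot and the mean of the other 5 depots in log2(FPKM + 0.1) for the members reported here; columns are depots with SATs left of VATs, red is higher and blue is lower in the depot (colours end at -3 and 3), and stars mark an adjusted p under 0.05. The 14 stars fall on 7 genes, with LAMA1 blue in BSAT and SSAT and red in PCAT and PRAT, and IAT has none.

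In SSAT, ITGA11, ITGB5 and LAMB2 were higher and LAMA1 was lower, at a background of 3.9% higher and 5.23% lower. ITGA11 ranged from 32.6 to 163 FPKM with a median of 82.1 in SSAT, against 2.91 to 102 FPKM in the other 30 libraries (1.88 ± 0.39, adjusted p = 0.00283, higher in 6 of 6 animals). ITGB5 ranged from 131 to 254 FPKM with a median of 231 in SSAT, against 32.1 to 257 FPKM in the others (0.98 ± 0.22, adjusted p = 0.00547). SSAT 2 was the low SSAT library for both genes. LAMB2 was narrowly spread in SSAT, at 233 to 280 FPKM, and only BSAT 1, the library with the highest skeletal muscle marker sum, had more than the SSAT minimum (0.66 ± 0.19, adjusted p = 0.0286). LAMA1 was 0 to 0.383 FPKM in SSAT (-3.43 ± 0.67, adjusted p = 0.00148). Of 9 fibroblast markers 7 were also higher in SSAT, with a median difference of 1.44. Their summed FPKM, however, had a lower median in SSAT (30346) than in BSAT (47295) or IAT (45960). The part of fibroblasts was not tested.

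With animal as a block 10 members passed in SSAT, at 5.4% higher and 9.07% lower of all gene models. ITGA2 (0.77, adjusted p = 0.00265) and LAMA2 (1.13, adjusted p = 0.0449) joined the higher members, and ITGAD, ITGAL, ITGA4 and ITGB2 joined the lower ones. ITGAD, ITGAL, ITGA4, ITGB2 and ITGAE had their lowest depot mean in SSAT, with ITGAL at 4.72 to 18.7 FPKM, while ITGAM, ITGAX and ITGB7 had it in IAT. Without the B cell-rich libraries 12 passed, at 5.9% higher and 9.62% lower of all gene models, among them ITGB3 (1.12, adjusted p = 0.00481) and LAMC1 (0.37, adjusted p = 0.024) as higher and LAMB1 (-0.64, adjusted p = 0.00795) and ITGA6 (-0.47, adjusted p = 0.0375) as lower. Without animal 3 only LAMA1 passed, with ITGA11 at 1.65, ITGB5 at 0.91 and LAMB2 at 0.66. LAMB2 also lost its call without animal 2 (0.63), 4 (0.61) or 6 (0.68).

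In BSAT no member was higher and 2 were lower, at 0.526% higher and 1.49% lower in the background. ITGB8 was 15.2 to 23.1 FPKM in BSAT, against 14.2 to 114 FPKM in the other 30 libraries, of which only 2 lay at or below the highest BSAT value (-1.16 ± 0.21, adjusted p = 0.00211, lower in 6 of 6 animals). LAMA1 was 0 to 0.464 FPKM in BSAT (-2.82 ± 0.67, adjusted p = 0.0204), and its call was lost without animal 2 (-2.42), 3 (-2.83), 5 (-2.61) or 6 (-2.92). ITGAV was lowest in BSAT, at 117 ± 14.8 FPKM, but did not pass (-0.27 ± 0.09, adjusted p = 0.111), and it passed without the B cell-rich libraries (-0.33, adjusted p = 0.00896).

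In IAT no member passed, at a background of 0.136% higher and 0.0452% lower. Below an unadjusted p of 0.05 (limma) lay 4 members. No share of all gene models at that limit is given, so these 4 are not read as a result. These were ITGA11 (0.94) and LAMA2 (0.98), with positive differences, and ITGAX (-1.37) and ITGB8 (-0.50). IAT ITGA11 was spread widely, from 18.6 FPKM in IAT 4 to 102 FPKM in IAT 5.

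In PCAT, ITGB8 and LAMA1 were higher, at a background of 3.26% higher and 1.01% lower. ITGB8 was 57.8 to 91.2 FPKM in PCAT with a median of 75.0, and of the other 30 libraries only OAT 1 (114 FPKM) and PRAT 4 (67.8 FPKM) reached the lowest PCAT value (1.21 ± 0.21, adjusted p = 0.000284, higher in 6 of 6 animals). LAMA1 passed at 2.72 ± 0.67 (adjusted p = 0.0121) and lost its call without animal 5 (2.73, adjusted p = 0.0604). ITGA3 (0.67 ± 0.20, adjusted p = 0.0507) passed with animal as a block (adjusted p = 0.0383). Without PRAT 4, ITGA8 (1.27, adjusted p = 0.0204) and ITGA3 (0.69, adjusted p = 0.0426) passed as well. ITGA3, a laminin-binding α chain, was 25.6 to 60.5 FPKM in PCAT and highest in PCAT 2 and PCAT 4, the libraries with the highest mesothelial sums. PCAT 5 followed with 43.7 FPKM of ITGA3 at a mesothelial sum of 4.92 FPKM. OAT 1, with a sum of 544 FPKM, had the lowest ITGA3 of all libraries (9.76 FPKM). The Schwann cell gene SOX10 was 15.7 to 41.5 FPKM in PCAT and at most 18.2 FPKM in the other libraries, and 4 of 7 Schwann cell markers passed as higher in PCAT. Of 9 mesothelial markers 8 passed as higher in PCAT, with a median difference of 3.72, and OAT 1, which had the highest ITGB8 value, had a mesothelial sum of 544 FPKM. Within PCAT, ITGB8 was highest in PCAT 5 (91.2 FPKM), which had the lowest mesothelial sum of that depot (4.92 FPKM). In PCAT 4, with the highest sum (2428 FPKM), ITGB8 was 61.9 FPKM. The part of nerve and of mesothelium in the ITGB8 difference was not tested.

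In OAT only LAMA2 passed, at a background of 0.334% higher and 0.447% lower. It was 0.901 to 22.1 FPKM in OAT with a median of 12.2, against 10.2 to 67.9 FPKM in the other 30 libraries (-2.16 ± 0.38, adjusted p = 0.00128, lower in 6 of 6 animals). OAT 1 and OAT 4 had the lowest values, and the difference was -1.35 without the 6 B cell-rich libraries and still passed. LAMA1 had a difference of 2.44 ± 0.67 in OAT and did not pass (adjusted p = 0.0837), and it passed without animal 1 (3.14) and without the 6 libraries (3.50). LAMC3, a γ chain known from nerve and retina, was at 0.0356 to 0.411 FPKM in OAT, against 0.0941 to 3.67 FPKM in the others (-1.61 ± 0.47, adjusted p = 0.1).

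In PRAT, LAMA1 was higher and ITGA11, ITGB5, LAMB2 and ITGB4 were lower, at a background of 7.6% higher and 3.29% lower. ITGA11 was 2.91 to 18.3 FPKM in PRAT with a median of 9.45 (-1.92 ± 0.39, adjusted p = 0.00239, lower in 6 of 6 animals), and its call was kept under all 17 settings. ITGB5 (-0.77 ± 0.22, adjusted p = 0.0236) lost its call without the B cell-rich libraries (-0.52) and without animal 2 (-0.53), 3 (-0.79) or 6 (-0.83). LAMB2 (-0.64 ± 0.19, adjusted p = 0.0313) lost it without animal 2 (-0.49), 3 (-0.66) or 5 (-0.66) and without PRAT 4 (-0.60). ITGB4 was 3.70 to 5.47 FPKM in 5 PRAT libraries and 16.03 FPKM in PRAT 4 (-0.77 ± 0.25, adjusted p = 0.0421), and it lost its call without animal 1 (-0.62), 2 (-0.73), 3 (-0.74), 5 (-0.73) or 6 (-0.65), with a pseudocount of 1 (-0.66) and with no filter on low values (adjusted p = 0.0535). LAMA1 (2.2 ± 0.67, adjusted p = 0.0309, higher in 5 of 6 animals) lost its call without animal 1 (1.39), 3 (1.97), 5 (2.39) or 6 (2.04) as well as with a pseudocount of 1 (1.25) or 0.01 (2.95) and after quantile normalization (2.13). Without the B cell-rich libraries ITGB3 (-1.35, adjusted p = 0.00432) and LAMB1 (0.67, adjusted p = 0.0175) passed as well. The fibroblast marker sum was 1202 to 8897 FPKM in PRAT and 1802 to 100232 FPKM in the other depots, and its part was not tested.

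The depots were also compared in all 15 pairs. Of 525 member tests, 39 passed in 13 members (7.43%), against 5.48% of the tests of all gene models, with the adjustment made over all gene models within each pair. LAMA1 differed in 8 pairs, all between a SAT and a VAT depot, and ITGA11 and ITGB8 in 5 each. ITGA11 was furthest apart between SSAT and PRAT, at 92.6 ± 48.4 and 10.4 ± 5.4 FPKM (3.17 ± 0.51, adjusted p = 8.94e-05). The largest ITGB8 difference was between BSAT and PCAT, at 18.5 ± 3.34 and 73.0 ± 11.9 FPKM (-1.98 ± 0.27, adjusted p = 8.35e-06). No pair of depots within the SATs or within the VATs passed for any member. Of depots next to each other in the order of a member's depot means, only IAT and PCAT for LAMA1 passed, at 1.11 ± 1.43 and 6.69 ± 2.79 FPKM (-3.19 ± 0.86, adjusted p = 0.0349).

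The other genes of the pathway were taken from 5 lists with 76 genes in the table. Between SATs and VATs, 7.9% of all gene models were called higher and 22.1% lower. The calls below stand against these shares and are not read as a result about a list. Of 14 other basement membrane genes tested, HSPG2 (perlecan, 4359 ± 867 FPKM in SATs and 3286 ± 1486 FPKM in VATs, 0.56) and SPARC (1.00) were higher in SATs, and the minor collagen chain COL4A6 was lower (-0.73). Of 7 laminin receptors other than integrins, SDC1 (0.62) and SGCA (1.09) were higher. Of 29 genes of integrin activation and the adhesion complex, KANK2 (0.58) was higher and LIMS1 (-0.36), TNS3 (-0.28) and CIB1 (-0.25) were lower. Of 16 other ligands of matrix integrins, EDIL3 (1.28), THBS1 (0.73) and FBLN5 (0.67) were higher and EMILIN1 was lower (-0.61). Of 9 counter-receptors of leukocyte integrins only MADCAM1, a receptor for ITGA4 integrins, passed (-1.17), at 0.198 ± 0.292 FPKM in SATs and 0.798 ± 1.24 FPKM in VATs. Among the depots, the fibronectin gene FN1 was higher in SSAT (1.67, adjusted p = 0.0282) and lower in PRAT (-1.93, adjusted p = 0.0106), as ITGA11 was, and the ligand genes TNC (1.81) and NPNT (1.24) were higher in PCAT. NPNT encodes nephronectin, a ligand of ITGA8.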

How the data were processed

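RNA from 36 AT libraries was sequenced by the authors on the HiSeq4000 platform. Per the study's methods and processing notes, reads were cleaned with Fastp 0.20.1, aligned with HISAT2 2.2.1 to the authors' own buffalo assembly and assembled with StringTie 2.1.4 and Gffcompare 0.11.2, and the authors deposited FPKM values, with no read counts. Depth per gene is therefore unknown. Of 23032 gene models, 6773 had no symbol, and 1 emptied line was not used here. Log2(FPKM + 0.1) of the 17688 gene models with a mean above 0.1 was fitted with limma 3.58.1 (R 4.3.3, mean-variance trend, Benjamini-Hochberg adjustment, threshold 0.05), for the F-test over depots, SATs against VATs, and each depot against the other 5. Figures were drawn with matplotlib 3.10.9. Members with a mean of at least 1 FPKM that passed a test were described by library, and the others by range. The values of 1 member, which counts among those tested, are not reported here. Members, gene lists and markers were chosen with earlier results of these data known.

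The same number marks the same animal in the labels. Deviations from the depot means had a mean correlation of 0.217 within an animal (0.0978, 0.103, 0.251, 0.307, 0.41 and 0.132 for animals 1 to 6) and -0.0627 between animals. The animal block, other pseudocounts, filters, scalings, summed gene models and left-out animals or libraries were tried as alternatives, and leaving out PRAT 4 was chosen after seeing the data. The fits were tested on simulated data.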

Additional observations from a re-analysis of the deposited data

Results flagged for a closer look

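Within a depot, a library was set apart when its gap to the nearest of the other 5 exceeded Dixon's 95% limit. This held for 13 of 180 groups of 6 libraries (7.22%), and chance gives about 1 in 20. BSAT 3 had 12.6 FPKM of ITGA1 (5.04 to 5.97 in the other BSAT libraries), 5.47 FPKM of ITGB4 (8.99 to 11.1) and 21.1 FPKM of LAMA2 (42.7 to 45.5). IAT 2 had 2358 FPKM of ITGB1 (1563 to 1774 in the other IAT libraries). IAT 4 had 15.3 FPKM of ITGA3 (25.2 to 32.6) and 159 FPKM of LAMC1 (204 to 230.5). OAT 1 had 4.74 FPKM of ITGA7 (27.9 to 66.2 in the other OAT libraries) and 30.9 FPKM of ITGB3 (7.04 to 12.1), and OAT 4 had 78.4 FPKM of ITGAV (130 to 146). PCAT 4 had 173 FPKM of ITGB5 (87.7 to 113 in the other PCAT libraries). PRAT 2 had 16.9 FPKM of ITGA7 (38.1 to 60.2 in the other PRAT libraries), and PRAT 4 had 16.03 FPKM of ITGB4 (3.70 to 5.47). SSAT 2 had 131 FPKM of ITGB5 (219.9 to 253.5 in the other SSAT libraries).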

How the results depend on the processing

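Of 29 calls of named members, 13 were kept under every alternative, and of 521 alternative values 462 kept the call, 59 lost it and 0 reversed; the cause was not tested. Members differing among the 6 depots numbered 8, 14 with the replicate block and 14 without the B cell-rich libraries, and 6 to 11 when an animal was left out. Of all 17688 gene models 3763 differed, and 1610 to 3350 did when an animal was left out. Between SATs and VATs, 15 became 4 under the study's cutoffs for p and fold change (p of 0.05 before adjustment, log2 difference of 1.5 or more either way), and 8 (without animal 1) to 15 when an animal was left out. Over all gene models the SAT against VAT calls numbered 5306, and 3512 to 4918 when an animal was left out. The study applied its cutoffs with DESeq2 to transcripts above a higher FPKM limit. Here they were applied to the limma fits, so the counts are not those of the study's test. With those cutoffs BSAT had 1 member, OAT 3, PCAT 1 and PRAT 2. The shares of all gene models past them were 1.93% between SATs and VATs, 0.729% in BSAT, 0.616% in OAT, 1.96% in PCAT and 1.07% in PRAT. SSAT had 10 members with the replicate block and 12 without the B cell-rich libraries, and OAT had 2 without them. PCAT had 4 without PRAT 4, and PRAT had 3 at a pseudocount of 1. The shares of all gene models were 14.5% and 15.5% in these SSAT settings, 0.645% in OAT and 4.53% in PCAT. In PRAT 1854 gene models were called at a pseudocount of 1, against 1927 in the main fit. Leaving out an animal gave 1 to 3 members in BSAT, 1 to 5 in SSAT, 1 to 2 in OAT, 1 to 4 in PCAT and 1 to 5 in PRAT, and 0 in IAT. The calls over all gene models moved too, at 88 to 290 in BSAT, 381 to 1594 in SSAT and 14 to 34 in IAT. They were 45 to 583 in OAT, 413 to 669 in PCAT and 773 to 2129 in PRAT. ITGB4 and LAMB3 lost their SAT against VAT calls when animal means were compared with the replicate block (adjusted p = 0.0906 and 0.0619). Other than for the genes named here and in the results, the block changed no member's call.

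Quantile normalization changed the calls over all gene models to 1069 higher and 450 lower in SSAT (690 and 925 as deposited), to 475 and 645 in PRAT (1345 and 582) and to 470 and 284 in PCAT (576 and 178). The read support of each FPKM value is unknown.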

Other observations

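A second gene model named LAMB1, on chromosome 22 of the authors' assembly beside the LAMB2 model, averaged 3.90 ± 1.07 FPKM in SATs and 6.03 ± 2.71 FPKM in VATs (SD, n = 18 libraries each). A second model named ITGB1, on chromosome 23, averaged 10.7 FPKM over the 36 libraries. ITGB3, a β chain that can pair with ITGAV, was highest in OAT 1 (30.9 FPKM), PRAT 2 (29.7) and PRAT 4 (23.5). ITGAM and ITGAX were both highest in BSAT 2, at 515 and 56.7 FPKM.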
